A study of Mus musculus with 9 samples.

Results

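The SLC25 family of mitochondrial carriers was followed in mouse adipocyte precursors during beige differentiation. Members were the genes whose symbol is Slc25a followed only by a number, with the ADP/ATP carriers Slc25a4 and Slc25a5 left out. This gave 45 genes of the 55359 listed. The rule reads the symbol and no measured value. It was set with earlier results of these data known, as were the gene lists and pairs used below. RNA was sequenced from precursors of the inguinal white fat pad, which lies under the skin, in 3 libraries each from day 0, day 4 and day 8. Day 0 cells had not been induced. The cells of days 4 and 8 were placed in an induction medium with dexamethasone, 3-isobutyl-1-methylxanthine (an inhibitor of cyclic AMP breakdown), indomethacin, insulin, triiodothyronine and rosiglitazone, an agonist of the fat cell receptor PPARγ. After 2 days they were moved to a maintenance medium that lacked dexamethasone, 3-isobutyl-1-methylxanthine and indomethacin. No untreated culture of day 4 or day 8 was among the samples, so time in culture and the induction media cannot be told apart. The labels used here give no strain, age, sex or number of mice, and do not say whether replicates came from separate cultures or animals. The p-values therefore measure the spread between these libraries, which may be technical.

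SLC25 carriers are small proteins of the mitochondrial inner membrane, with a few members in the outer membrane or in peroxisomes. Each binds its cargo on 1 side of the membrane and releases it on the other, usually in exchange for another metabolite. Their cargo includes citrate and other acids, phosphate, acylcarnitines, amino acids, nucleotides, cofactors and metal ions. The uncoupling protein Ucp1, which lets brown and beige fat make heat, belongs to the same family by structure but carries another symbol. In fat cells, citrate exported from mitochondria supplies carbon for fatty acid synthesis, and acylcarnitine import supplies fatty acid oxidation.

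Total counts per library ranged from 26387408 to 31474490. Levels are given as CPM, counts per 1e6 counts after TMM scaling for library composition. The summed CPM of 6 adipocyte markers lay between 15.7 and 30.8 at day 0, between 19580 and 36410 at day 4 and between 26740 and 28970 at day 8. Leptin, 1 of the 6, had a mean of at most 0.269 CPM on any day. Precursor markers summed to between 1314 and 1425 CPM at day 0 and to between 429 and 552 CPM at day 8. They did not move as 1 group: mean CPM on days 0, 4 and 8 was 836, 149 and 114 for Pdgfrb and 183, 101 and 46.4 for Pdgfra, but 349, 697 and 303 for Ly6a, 9.61, 31.2 and 6.99 for Cd34 and 6.86, 14.9 and 6.52 for Dlk1. The last 3 were higher at day 4 than at day 0 (adjusted p = 0.0198, 0.0177 and 0.0263) and did not pass at day 8 against day 0 (0.58, 0.457 and 0.872). Day 4 replicate 2 stood apart from the other day 4 libraries. Its adipocyte markers summed to 19580 CPM, against 36410 and 32300 in replicates 1 and 3, and its precursor markers to 1621 CPM, against 654 and 705. Among markers of other cells, the lymphocyte genes Cd3g and Ms4a1 had no counts, and the lymphocyte list summed to at most 0.108 CPM in any library. Skeletal muscle markers summed to between 30.1 and 36.9 CPM at day 0, 1.57 and 6.13 at day 4, and 7.15 and 10.8 at day 8. Nearly all of this was Acta1, skeletal muscle actin, with means of 32.9, 3.17 and 8.57 CPM (log2 -3.36 at day 4, adjusted p = 8.24e-05), while Ckm and Myh4 had no counts and Tnnt3 had means of 0.632, 0.0604 and 0.182 CPM. The 6 macrophage markers summed to between 8.53 and 80.8 CPM. The part of these markers in the results was not tested. The precursor marker Dpp4 had a mean of at most 0.229 CPM. In bulk RNA, more cells of a type and more RNA per cell cannot be told apart.

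The 45 carriers together rose from 1516 ± 30.2 CPM at day 0 to 5250 ± 1280 at day 4 and 5917 ± 642 at day 8 (mean ± SD, n = 3). The sums at day 0 were 1490, 1549 and 1508 CPM. At day 4 they were 6105, 3781 and 5865 CPM, and at day 8 they were 5335, 6605 and 5811 CPM. Every induced library was above every day 0 library, while the ranges of days 4 and 8 overlapped and day 4 replicate 2 was the lowest of the induced libraries. The ratio of means was 3.46 for day 4 over day 0 and 1.13 for day 8 over day 4. The 3 members with the most counts held 46.9% of the sum at day 0, 47.3% at day 4 and 46.4% at day 8. Those 3 were Slc25a3, Slc25a39 and Slc25a1 at days 0 and 4, and Slc25a39, Slc25a1 and Slc25a10 at day 8. The phosphate carrier Slc25a3 held 20.9% to 21.7% of the members' counts in the day 0 libraries and 7.60% to 8.84% in the day 8 libraries. Slc25a10, the dicarboxylate carrier, went from 1.44% to 1.53% of them at day 0 up to 7.65% to 10.5% at day 8.

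**Figure D1:**
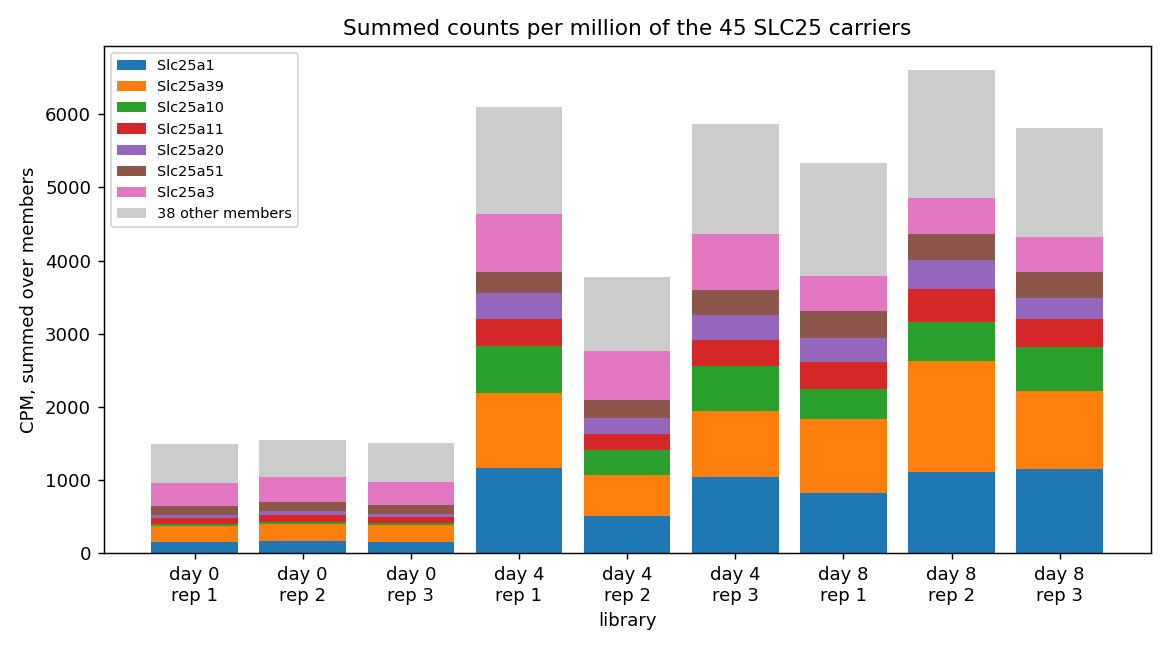
Summed CPM of the 45 carriers in each of the 9 libraries, stacked by the 7 members named in the key and the 38 others; each bar is a library. The day 0 bars reach 1490 to 1549 CPM, and the 6 induced bars reach 3781 to 6605 CPM, with day 4 replicate 2 the shortest of these.

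To compare members with each other, CPM was divided by the exonic length of each gene in kilobases. At day 0 the glutathione carrier Slc25a39 was highest, at 82.0 ± 2.68 CPM per kb (SD, n = 3), followed by the citrate carrier Slc25a1 at 74.6 ± 3.03. Next came the phosphate carrier Slc25a3 at 58.3 ± 2.26, the oxoglutarate/malate carrier Slc25a11 at 43.4 ± 3.79, the mitochondrial NAD carrier Slc25a51 at 22.4 ± 1.25 and the peroxisomal carrier Slc25a17 at 19.0 ± 0.342. Among these 6, no gene's libraries overlapped those of the next in order. At day 4 the order was Slc25a1 at 419 ± 162 CPM per kb, Slc25a39 at 301 ± 85.0, Slc25a10 at 154 ± 50.8, Slc25a11 at 150 ± 37.1, Slc25a3 at 134 ± 12.0 and Slc25a20, the carnitine/acylcarnitine carrier, at 61.8 ± 14.2. Slc25a1 overlapped Slc25a39 there, and Slc25a10, Slc25a11 and Slc25a3 each overlapped the next of the 3. At day 8 Slc25a1 was at 473 ± 83.1 CPM per kb and Slc25a39 at 437 ± 102, again overlapping. They were followed by Slc25a11 at 189 ± 21.3, Slc25a10 at 149 ± 29.1, Slc25a3 at 87.3 ± 2.80 and Slc25a20 at 68.8 ± 11.5. In this order Slc25a10 was number 12 of 45 at day 0, 3 at day 4 and 4 at day 8. Slc25a34, a carrier whose cargo is not established, was number 39 at day 0, 11 at day 4 and 12 at day 8.

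Of the 45 members, 38 had enough counts to be tested and 7 did not. From day 0 to day 4, 22 of the 38 tested members rose (57.9%, against 28.6% of all 14649 genes tested) and 4 fell (10.5%, against 26.0%). The median log2 fold change was 0.92 over the tested members and -0.012 over all tested genes. At least 2-fold, 18 members rose and 3 fell, against 18.6% and 16.0% of all genes. From day 0 to day 8, 23 rose (60.5%, against 33.5%) and 6 fell (15.8%, against 29.9%), with medians of 0.63 and 0.028; 18 rose and 4 fell at least 2-fold, against 22.5% and 19.7%. From day 4 to day 8, 4 rose (10.5%, against 11.7%) and 6 fell (15.8%, against 10.8%), shares close to those of all genes, with medians of 0.17 and 0.0028; 3 rose and 1 fell at least 2-fold, against 5.82% and 5.24%. When libraries were scaled by total counts instead, 20 members rose and 9 fell at day 4, so the higher share of the members called went from 84.6% to 69.0%. Of all tested genes, 21% rose and 38.4% fell there. That scaling moved the median of all genes to -0.34 and that of the members to 0.59, and the higher share of all genes called from 52.4% to 35.3%. That scaling added Slc25a27, Slc25a30, Slc25a40, Slc25a43 and Slc25a53 to the members called lower (adjusted p = 0.016 to 0.0359). Slc25a40 passed in 2 of 15 alternative fits and Slc25a43 in 6, so not with that scaling alone. At day 8 against day 0 total-count scaling left 18 members higher and 7 lower, with medians of -0.33 over all genes and 0.27 over members. Of all tested genes, 24.8% were higher and 41.3% lower. The higher share of all genes called went from 52.9% to 37.5%.

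**Figure D2:**
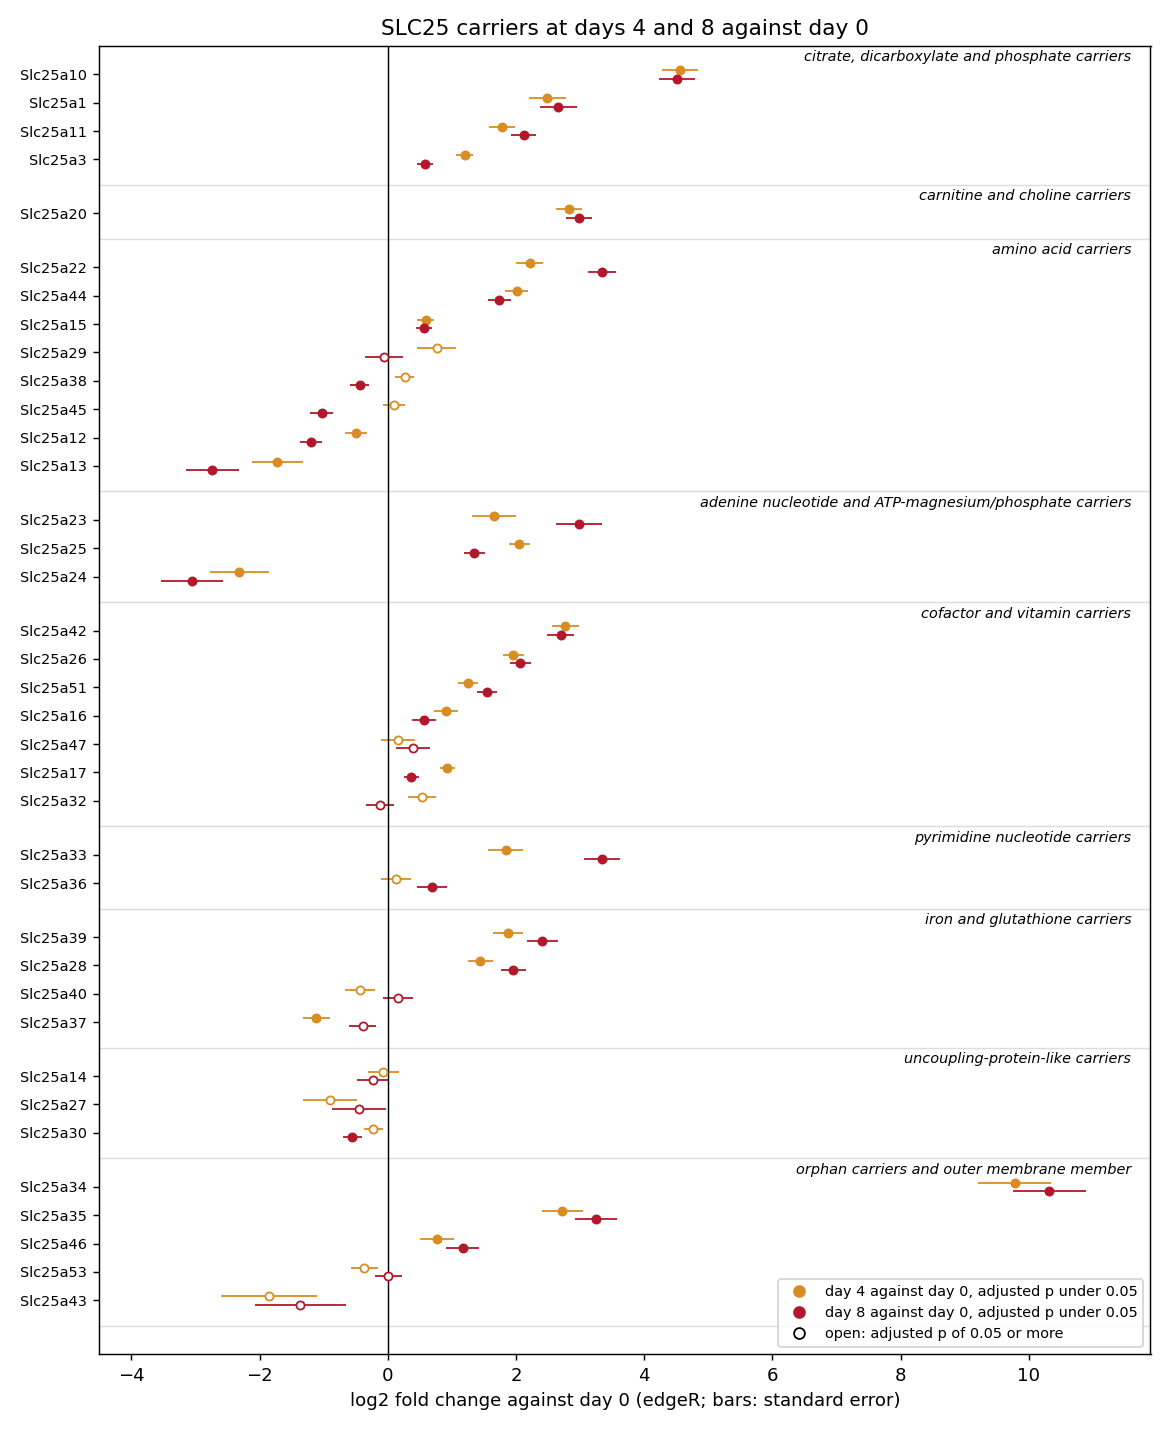
Log2 fold change of 37 of the 38 tested carriers at day 4 (orange) and day 8 (red) against day 0, by cargo group; bars are standard errors, and open points had an adjusted p of 0.05 or more. Slc25a34 lies farthest right, at 9.78 and 10.32, and Slc25a24 farthest left, at -2.31 and -3.05.

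Carriers of citrate, dicarboxylates and phosphate rose: 4 of the 4 tested were higher at day 4 and at day 8 than at day 0. Of all tested genes, 28.6% and 33.5% were. Slc25a1, which exports citrate to the cytosol, was at 156, 169 and 159 CPM at day 0, 1170, 508 and 1041 at day 4, and 818, 1104 and 1150 at day 8. The day 0 libraries were all below the others, and the fitted rise was 5.61-fold at day 4 (log2 2.49, SE 0.29, adjusted p = 4.5e-05) and 6.34-fold at day 8. Slc25a10 exchanges malate or succinate for phosphate. Its libraries were at 22.4, 22.3 and 23.1 CPM at day 0, 648, 331 and 620 at day 4, and 408, 528 and 608 at day 8. With no overlap against day 0, the rise was 23.5-fold at day 4 (log2 4.56, SE 0.28, adjusted p = 6.67e-07) and 22.7-fold at day 8. Slc25a11 exchanges 2-oxoglutarate for malate and is part of the malate-aspartate shuttle, which brings reducing equivalents into mitochondria. It went from 87.7, 101 and 87.1 CPM at day 0 to 368, 227 and 356 at day 4 and 369, 452 and 380 at day 8, a 3.44-fold and a 4.35-fold rise. Of its exonic bases, 8.92% lie opposite exons of Rnf167.

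Slc25a3 brings in the phosphate used for ATP synthesis. It was at 311, 336 and 323 CPM at day 0, 795, 670 and 771 at day 4, and 472, 502 and 480 at day 8. All 3 days were separate: the gene rose 2.30-fold to day 4 (adjusted p = 3.52e-05) and fell by 0.62 on the log2 scale from day 4 to day 8 (SE 0.13, adjusted p = 0.00918). Its remaining rise from day 0 to day 8, 0.58 on the log2 scale with an adjusted p of 0.00283, did not pass with total-count scaling (0.22, adjusted p = 0.125). Slc25a21, which carries oxodicarboxylates, had too few counts for the test. Its counts were 2, 1 and 0 at day 0, 26, 4 and 24 at day 4, and 0, 0 and 1 at day 8, so nearly all of them came from day 4. The ratio of summed scaled counts was 23.8 for day 4 over day 0 (95% counting interval 7.73 to 119) and 58.9 for day 4 over day 8 (10.1 to 2370). These intervals cover counting error only. Without the filter on low counts, edgeR gave adjusted p-values of 0.00144 and 0.0024 for these comparisons.

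The carnitine/acylcarnitine carrier Slc25a20, which brings fatty acyl groups into mitochondria for oxidation, was at 40.1, 44.4 and 41.9 CPM at day 0. It reached 346, 220 and 332 CPM at day 4 and 324, 393 and 283 at day 8. No induced library came near the day 0 values, and the rise was 7.10-fold at day 4 (log2 2.83, SE 0.20, adjusted p = 1.72e-06) and 7.91-fold at day 8. Slc25a48, grouped with it as a choline carrier, had 7 counts in all libraries together.

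**Figure D3:**
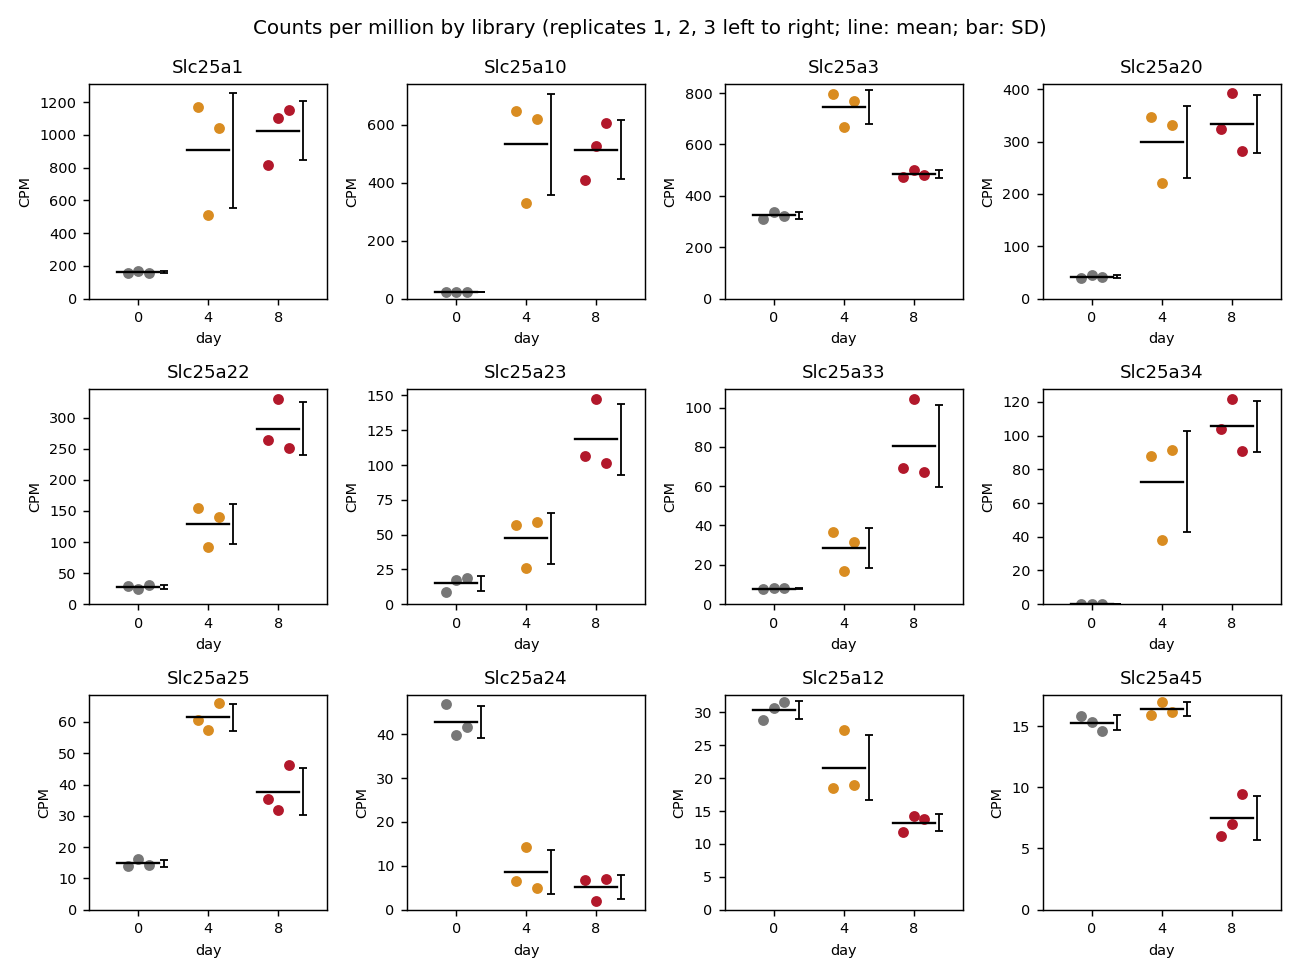
CPM of 12 carriers in each library, by day, with replicates 1, 2 and 3 from left to right; lines are means and bars SDs over 3 libraries. Slc25a22, Slc25a23 and Slc25a33 are higher at each later day, Slc25a3 and Slc25a25 peak at day 4, and Slc25a45 differs only at day 8.

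Of 8 amino acid carriers tested, 3 rose and 2 fell by day 4, shares near those of all tested genes (28.6% and 26.0%). At day 8, 3 were higher and 4 lower than at day 0, against 33.5% and 29.9% of all genes. Slc25a22, a glutamate importer, went from 28.5, 23.9 and 30.9 CPM at day 0 to 155, 92.4 and 140 at day 4 and 264, 331 and 251 at day 8. The 3 days did not overlap: it rose 4.64-fold to day 4 (adjusted p = 1.16e-05) and a further 2.19-fold to day 8 (log2 1.13, SE 0.20, adjusted p = 0.0043). The other glutamate carrier, Slc25a18, had 5 counts in all, 2 and 3 of them in day 8 replicates 1 and 2 and 0 in every other library. Slc25a44, a carrier of branched-chain amino acids, rose from between 49.1 and 59.9 CPM at day 0 to between 171 and 269 at day 4, 4.03-fold, and was at 160 to 195 CPM at day 8. The ornithine carrier Slc25a15 rose 1.51-fold by day 4 and stood at 1.48-fold at day 8, with adjusted p-values of 0.00303 and 0.00299. With total-count scaling neither passed, at 0.111 and 0.193.

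Slc25a12 and Slc25a13 export aspartate in exchange for glutamate, the other arm of the malate-aspartate shuttle, and both fell. Slc25a12 was at 28.8, 30.6 and 31.5 CPM at day 0, 18.6, 27.3 and 18.9 at day 4, and 11.8, 14.2 and 13.8 at day 8. Its day 4 libraries lay between those of the other days without overlap, with replicate 2 nearest to day 0. The fall was 0.49 on the log2 scale to day 4 (SE 0.17, adjusted p = 0.0314) and 1.20 to day 8 (SE 0.17, adjusted p = 0.000163). The day 4 call did not hold without any single day 0 library or without day 4 replicate 1 or 3, with adjusted p-values from 0.0504 to 0.124. Slc25a13 was at 5.47, 5.34 and 5.79 CPM at day 0, 1.08, 1.89 and 2.05 at day 4, and 0.624, 0.452 and 1.40 at day 8. It fell by 1.72 to day 4 (adjusted p = 0.00375) and by 2.73 to day 8 on the log2 scale (SE 0.41, adjusted p = 0.000221). Without day 8 replicate 3, the highest of its day, the latter was -3.34.

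Slc25a38 imports glycine for heme synthesis. At day 0 its libraries were at 20.8, 22.5 and 20.0 CPM, at day 4 at 21.4, 28.9 and 25.7, and at day 8 at 15.1, 16.6 and 15.1. Day 8 was below every other library, and the fall from day 4 was 0.70 on the log2 scale (adjusted p = 0.00843). The fall from day 0, 0.43 with an adjusted p of 0.0226, did not pass without day 0 replicate 2, without day 8 replicate 1 or 3, or without the filter on low counts (0.0545 to 0.0706). Slc25a45 was at 15.8, 15.3 and 14.6 CPM, then 15.9, 17.0 and 16.2, then 6.0, 6.96 and 9.46, so day 8 alone was low. It fell by 1.13 from day 4 to day 8 (SE 0.18, adjusted p = 0.00271) and by 1.03 from day 0. Slc25a29, a carrier of basic amino acids, stood at 0.76 on the log2 scale at day 4 against day 0 with an adjusted p of 0.0501. It passed there in 5 of 15 alternatives, namely without day 4 replicate 2, without day 8 replicate 1 or 2, with DESeq2 and in a fit of only the 6 libraries compared (0.0112 to 0.0397).

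Among carriers that exchange ATP-magnesium for phosphate, which set the adenine nucleotide content of the matrix in response to calcium, the 3 tested members took separate courses. Slc25a24 was at 46.8, 39.9 and 41.7 CPM at day 0, 6.42, 14.3 and 5.00 at day 4, and 6.66, 1.88 and 6.90 at day 8. It fell by 2.31 on the log2 scale to day 4 (SE 0.46, adjusted p = 0.00174) and by 3.05 to day 8, and days 4 and 8 overlapped. Without day 4 replicate 2, where it was highest among the induced libraries, the day 4 value was -2.91. Slc25a23 went the other way, from 8.89, 17.5 and 18.6 CPM to 56.9, 26.0 and 59.1 at day 4 and 106, 148 and 101 at day 8. Its days did not overlap, and it rose 3.15-fold to day 4 (adjusted p = 0.00217) and another 2.50-fold to day 8 (adjusted p = 0.0199). When day 8 replicate 2 was left out, that second step missed the threshold (adjusted p = 0.0748).

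Slc25a25, the third of these carriers, peaked at day 4. Its libraries were at 13.9, 16.1 and 14.4 CPM at day 0, 60.7, 57.5 and 66.1 at day 4, and 35.4, 31.7 and 46.1 at day 8. The 3 days were separate, with a 4.16-fold rise to day 4 (log2 2.06, SE 0.16, adjusted p = 3.19e-06) and a fall of 0.70 on the log2 scale to day 8 (SE 0.16, adjusted p = 0.0108). Day 4 replicate 2 did not stand apart here. Relatives Slc25a31, Slc25a41 and Slc25a54 had 18, 2 and 0 counts in all libraries together.

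Promoters of the members were read from RefSeq sequences of build GRCm38.p6, from 250 bases before to 50 bases after each start. Of the 45 members, 34 were matched, with 44 promoters. On both strands, 5 sets of letters were searched. TGACGTCA, the cyclic AMP response element, was found in 2 of the 44 (4.55%, against 2.90% of the 13948 promoters of tested genes), those of Slc25a25 and Slc25a36. The NRF1-type motif, GCGCA then any base then GCGC, was found in 2 (4.55%, against 9.32%), those of Slc25a3 and Slc25a31. TCACNCCAC, a sterol response type, was found in 1, that of Slc25a18 (2.27%, against 1.18%). TCAAGGTCA, the letters of an ERR site, and AGGNCA repeated after 1 base, as in PPAR-type sites, were found in none, against 0.280% and 0.215%. Over all 32851 promoters the shares were 1.79%, 4.60%, 1.24%, 0.423% and 0.381%, in the same order. The members' promoters include those of members not tested, Slc25a31 and Slc25a18 among them. The share of the NRF1-type motif in the members was thus near that of all promoters. No other motif was searched, and a match is a description of the letters only. The 250 bases upstream of the start are shown for the 3 tested members with a match, of which Slc25a3 and Slc25a25 rose to day 4 and then fell. Capitals mark the motif, which for Slc25a3 lies on the opposite strand and so appears as its reverse complement. The start shown for Slc25a25 is 1 of 3 listed for it. All 3 are on the minus strand and written 5′ to 3′ along the gene. They are chr2:32424067-32424316 for Slc25a25, with TGACGTCA from base -150, chr9:97111042-97111291 for Slc25a36, with TGACGTCA from base -161, and chr10:91123968-91124217 for Slc25a3, with the NRF1-type letters from base -214.
Slc25a25: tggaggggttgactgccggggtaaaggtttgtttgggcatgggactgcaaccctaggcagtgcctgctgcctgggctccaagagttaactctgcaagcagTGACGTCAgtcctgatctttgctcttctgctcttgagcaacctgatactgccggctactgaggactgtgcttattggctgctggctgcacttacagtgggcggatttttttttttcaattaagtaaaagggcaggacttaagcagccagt
Slc25a36: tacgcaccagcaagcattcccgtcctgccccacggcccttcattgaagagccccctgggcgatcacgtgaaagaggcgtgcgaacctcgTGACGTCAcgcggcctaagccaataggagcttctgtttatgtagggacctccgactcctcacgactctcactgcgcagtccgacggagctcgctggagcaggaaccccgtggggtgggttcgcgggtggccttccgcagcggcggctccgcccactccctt
Slc25a3: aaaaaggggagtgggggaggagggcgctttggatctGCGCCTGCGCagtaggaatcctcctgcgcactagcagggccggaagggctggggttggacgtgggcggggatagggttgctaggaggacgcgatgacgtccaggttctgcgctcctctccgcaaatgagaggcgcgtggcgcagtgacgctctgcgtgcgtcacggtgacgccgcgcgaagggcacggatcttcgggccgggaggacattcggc

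Of the 8 carriers of cofactors and vitamins, all tested, 6 rose by day 4, the same 6 were higher at day 8, and none was lower than at day 0. Of all tested genes, 28.6% and 33.5% were higher on these days and 26.0% and 29.9% lower. Slc25a42, a coenzyme A carrier, went from 10.3, 8.77 and 8.78 CPM at day 0 to 64.2, 47.5 and 78.4 at day 4 and 60.5, 72.0 and 49.0 at day 8, a 6.81-fold and a 6.50-fold rise without overlap with day 0. Slc25a16, also linked to coenzyme A, was at 24.7, 21.4 and 20.9 CPM, then 40.6, 37.4 and 47.6, then 40.7, 24.4 and 33.8. Its day 8 libraries reached down to those of day 0. It rose 1.88-fold to day 4 (adjusted p = 0.00214) and stood at 1.48-fold at day 8 (adjusted p = 0.0218). The latter did not pass without day 0 replicate 2 or 3 or without day 8 replicate 1 or 3 (0.0537 to 0.0909), or with total-count scaling (0.381). The NAD carrier Slc25a51 was at 120, 131 and 119 CPM at day 0, 296, 235 and 347 at day 4, and 374, 354 and 360 at day 8, and rose 2.37-fold and 2.94-fold.

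Slc25a17, which carries coenzyme A and related cofactors into peroxisomes, rose and fell back in part. It was at 53.8, 55.2 and 53.4 CPM at day 0, 112, 92.6 and 105 at day 4, and 70.0, 66.0 and 74.0 at day 8. The 3 days did not overlap. It rose 1.91-fold to day 4 (adjusted p = 8.65e-05) and then fell by 0.56 on the log2 scale (adjusted p = 0.0085). The difference left between days 8 and 0 (log2 0.37, adjusted p = 0.0171) did not pass without any single day 0 library or without day 8 replicate 3 (0.0555 to 0.0779), without the filter on low counts (0.0686), or with total-count scaling (0.01, adjusted p = 0.939). Slc25a26, the S-adenosylmethionine carrier, rose 3.90-fold and 4.19-fold. The folate carrier Slc25a32 and Slc25a47 did not pass in any comparison. Slc25a32 stood at 0.54 on the log2 scale at day 4 against day 0 (adjusted p = 0.0598) and at -0.65 from day 4 to day 8 (0.0571). Without day 4 replicate 2 these were 0.70 (adjusted p = 0.0116) and -0.87 (0.0123), without day 8 replicate 1 they passed at 0.0448 and 0.0429, and DESeq2 called both (0.0476 and 0.0246). In all, 4 and 5 of 15 alternatives called them.

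The pyrimidine nucleotide carriers Slc25a33 and Slc25a36 supply mitochondria with building blocks for DNA and RNA. Slc25a33 was at 7.46, 8.22 and 8.04 CPM at day 0, 36.7, 17.0 and 31.4 at day 4, and 69.2, 104 and 67.3 at day 8. Each day lay above the one before, with steps of 3.59-fold (adjusted p = 0.000254) and 2.83-fold (log2 1.50, SE 0.27, adjusted p = 0.00411). Of its exonic bases, 14.9% lie opposite the antisense transcript Gm13068. Slc25a36 stayed closer to its day 0 level, at 35.0, 23.7 and 28.6 CPM, then 37.9, 20.9 and 37.2, then 53.4, 47.4 and 39.9. Days 0 and 4 overlapped, and it was 1.61-fold higher at day 8 than at day 0 (adjusted p = 0.0244). That call did not hold without day 0 replicate 2 or 3 or without day 8 replicate 1 or 2 (0.057 to 0.109), or with total-count scaling (0.213).

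Of the 4 carriers of iron and glutathione, 2 rose and 1 fell by day 4, against 28.6% and 26.0% of all tested genes. At day 8, 2 were higher and 0 lower than at day 0, against 33.5% and 29.9%. The 2 that rose were 1 for each cargo. Slc25a28, mitoferrin 2, an importer of iron, was at 11.2, 13.5 and 12.6 CPM at day 0, 39.3, 25.9 and 36.5 at day 4, and 40.6, 58.9 and 45.4 at day 8, rising 2.72-fold and 3.88-fold. Slc25a37, mitoferrin 1, which serves iron import for heme in red cell precursors, was at 23.9, 21.8 and 20.9 CPM, then 6.96, 13.7 and 10.1, then 17.4, 17.4 and 15.9. It fell by 1.11 on the log2 scale to day 4 (SE 0.22, adjusted p = 0.00142) and rose by 0.72 to day 8 (adjusted p = 0.0359), with no overlap between days. The later rise passed in only 5 of 15 alternatives. It was lost when any library other than day 4 replicate 2 was left out (0.055 to 0.0976), with total-count scaling (0.0743) and in a fit of only the 6 libraries compared (0.104). At day 8 it stood at -0.39 against day 0 (adjusted p = 0.129), and passed without day 4 replicate 1 or 2 (0.0485 and 0.0248), with total-count scaling (-0.75, 0.0175) and in a fit of only the 6 libraries compared (0.0177). The glutathione carrier Slc25a39 was at 220, 234 and 224 CPM, then 1019, 567 and 902, then 1022, 1527 and 1064. It rose 3.67-fold by day 4 (adjusted p = 8.92e-05) and was 5.33-fold above day 0 at day 8. Slc25a40, its close relative, was at 13.5, 11.4 and 11.1 CPM, then 10.9, 6.89 and 8.97, then 17.8, 11.2 and 11.2, and passed in no comparison (adjusted p = 0.145, 0.0943 and 0.564).

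The carriers most like uncoupling proteins did not rise. Slc25a30 was at 31.5, 31.6 and 34.0 CPM at day 0, 24.1, 30.1 and 28.9 at day 4, and 23.0, 18.4 and 24.9 at day 8. It was lower at day 8 than at day 0 by 0.55 on the log2 scale (SE 0.15, adjusted p = 0.00834). Slc25a14 was at 5.31, 4.69 and 4.26 CPM, then 5.88, 4.13 and 3.62, then 4.47, 3.31 and 4.31, with all days overlapping. Slc25a27 ranged from 0.375 to 1.24 CPM, and neither passed in any comparison. The family relatives outside the symbol rule were higher after induction. Mean CPM on days 0, 4 and 8 was 0, 6.71 and 156 for Ucp1, 5.96, 114 and 284 for Ucp2, and 0, 4.02 and 10.7 for Ucp3. The left-out ADP/ATP carriers were at 453, 652 and 749 CPM for Slc25a4 and 189, 1148 and 911 for Slc25a5. Slc25a4 rose by 0.53 on the log2 scale to day 4 (adjusted p = 0.0104) and Slc25a5 by 2.60 (adjusted p = 1.08e-06).

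Of the 5 carriers without an established cargo or in the outer membrane, 3 rose by day 4 and were higher at day 8. Among all tested genes the shares were 28.6% and 33.5%. Slc25a34 had 6, 2 and 0 counts at day 0, 2111, 1050 and 2326 at day 4, and at day 8 it was at 104, 122 and 91.0 CPM, against 88.0, 38.1 and 91.5 CPM at day 4. It was nearly absent before induction. The ratio of summed scaled counts was 908 for day 4 over day 0 (95% counting interval 460 to 2100) and 1340 for day 8 over day 0 (679 to 3100). These intervals cover counting error only, not the spread between libraries. The fitted log2 fold change was 9.78 at day 4 (SE 0.57, adjusted p = 4.51e-07), and without day 0 replicate 1, which held 6 of the 8 counts, it was 10.99. At day 8 it was 10.32, and 11.52 without that library. Slc25a34 passed the filter on low counts only through its day 4 and day 8 libraries, where it is high. Its calls therefore add no support beyond the counts themselves, though it is 1 of the 3 counted above. Its relative Slc25a35 was at 4.96, 3.85 and 3.31 CPM, then 34.2, 13.4 and 32.7, then 36.8, 38.9 and 39.7, a 6.61-fold and a 9.49-fold rise. Exons of Rangrf lie opposite 31.3% of the exonic bases of Slc25a35, so its counts are uncertain if strand was not used in counting. Slc25a46, an outer membrane member involved in mitochondrial shape, rose 1.70-fold at day 4 (adjusted p = 0.0304) and 2.25-fold at day 8. The day 4 call did not hold without day 0 replicate 2 or 3 or without day 4 replicate 1 or 3 (0.0701 to 0.112), or with total-count scaling (0.187). Slc25a43 and Slc25a53 passed in no comparison. Slc25a43 stood at -1.85 on the log2 scale at day 4 (adjusted p = 0.0552) and -2.70 without day 4 replicate 2 (0.0151). It passed in 6 of 15 alternatives, among them DESeq2 (0.0317), no filter on low counts (0.0293), total-count scaling (0.0298) and leaving out day 8 replicate 1 (0.0447). At day 8 against day 0 it passed only in the fit of the 6 libraries compared (0.0457).

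Taking both steps, 16 of the 38 tested members rose to day 4 and did not pass thereafter (20.8% of all tested genes did so). A further 3, Slc25a22, Slc25a23 and Slc25a33, rose in both steps (3.57%), and 3, Slc25a3, Slc25a17 and Slc25a25, rose and then fell (4.27%). Slc25a12 fell in both steps (2.42%), Slc25a37 fell and rose (3.11%), and Slc25a13 and Slc25a24 fell and then did not pass (20.5%). Slc25a38 and Slc25a45 fell only in the second step (4.07%). No member rose only in the second step (4.99%), and 10 passed in neither (36.3%). The count of members that fell from day 4 to day 8 depended on day 4 replicate 2. Without it, 10 of 39 tested members fell instead of 6 of 38, and 11.5% of all genes tested there fell. The added members were Slc25a29 (log2 -1.0, adjusted p = 0.0375), Slc25a32 (-0.87, 0.0123), Slc25a44 (-0.48, 0.031) and Slc25a21 (-6.02). Slc25a21 passed the filter on low counts there only through its day 4 libraries, where it is high. Its call is therefore no support for a fall. The second fall of Slc25a12 (log2 -0.71, adjusted p = 0.0167) did not pass without day 8 replicate 1 (0.0573) or in a fit of only the 6 libraries compared (0.0514). Slc25a13 passed in the second step without day 8 replicate 3 (-1.63, 0.0212), and Slc25a28 and Slc25a40 without day 4 replicate 1 (0.63, 0.0452, and 0.76, 0.0491). Without day 8 replicate 2, only 2 members rose in this step, Slc25a22 and Slc25a33, while 7.2% of all genes tested there rose.

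Ratios of related carriers within a library do not depend on scaling between libraries. The ratios of 9 pairs were compared over the 3 days with an exact permutation test of the 9 libraries, in which the smallest possible p is 0.00357; p-values were adjusted over the 9 pairs. The pair of Slc25a22 and Slc25a18 was not tested because of the few counts of Slc25a18. The ratios use the same counts as the fold changes above. In 8 of 9 pairs the ratio passed the threshold, but the pairs were chosen with earlier results of these data known. With a replicate block none of the 8 passed (adjusted exact permutation p = 0.0833 or 0.125). Slc25a33 over Slc25a36 went from a mean log2 ratio of -1.86 ± 0.353 (SD, n = 3) at day 0 to -0.19 ± 0.131 at day 4 and 0.76 ± 0.383 at day 8 (exact permutation p = 0.00357, adjusted 0.0161). Per exonic kilobase this was a ratio of 1.40, 4.45 and 8.59. Slc25a24 over Slc25a23 went from 1.58 ± 0.705 to -2.52 ± 1.45 and -4.71 ± 1.36 (exact p = 0.00357, adjusted 0.0161), so the more abundant of the 2 by length changed, from a ratio of 4.62 per kilobase to 0.0588.

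Slc25a24 over Slc25a25 went from 1.53 to -2.99 and -3.07 (adjusted exact permutation p = 0.0402). The mitoferrin ratio, Slc25a28 over Slc25a37, was -0.84, 1.76 and 1.50 (adjusted exact p = 0.0386), and per kilobase 0.900, 5.42 and 4.53. By length the libraries of the pair overlapped at day 0, at 3.68 ± 0.255 for Slc25a37 and 3.32 ± 0.316 CPM per kb for Slc25a28 (SD, n = 3), and Slc25a28 was higher at days 4 and 8. Slc25a39 over Slc25a40 was 4.24, 6.52 and 6.50 (adjusted exact p = 0.0402), with Slc25a39 ahead on every day. Slc25a42 over Slc25a16 was -1.26, 0.58 and 0.89 (adjusted exact p = 0.0386), or 0.333, 1.19 and 1.48 per kilobase. Slc25a34 over Slc25a35 was -6.07, 1.45 and 1.45 (adjusted exact p = 0.0402). Slc25a12 over Slc25a13 rose from 2.45 to 3.70 and 4.13 (adjusted exact p = 0.0386), but the call was lost when any single day 0 library, replicate 1 or 2 of day 4, or replicate 1 or 2 of day 8 was left out (0.0522 to 0.108). Slc25a14 over Slc25a30, at -2.77, -2.63 and -2.45, did not pass (exact permutation p = 0.504).

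**Figure D4:**
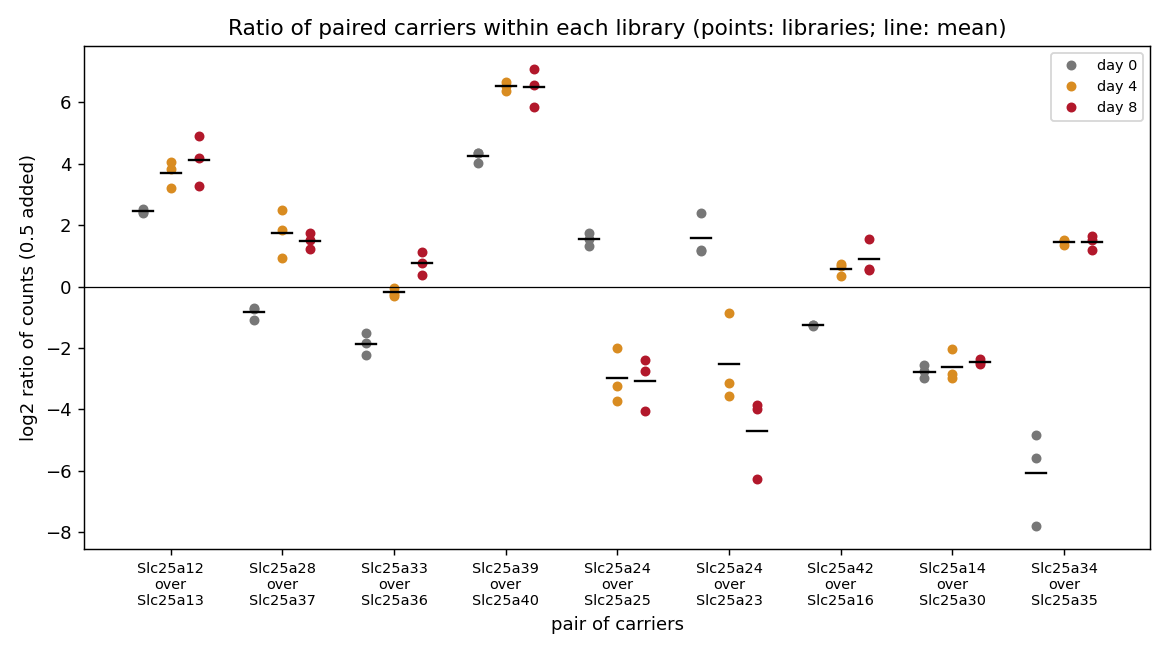
Log2 ratio of the counts of 9 pairs of related carriers within each library, with 0.5 added to each count; points are libraries, grey for day 0, orange for day 4 and red for day 8, and lines are means of 3. The ratio crosses 0 between day 0 and the later days for Slc25a28 over Slc25a37, Slc25a24 over Slc25a25 and over Slc25a23, Slc25a42 over Slc25a16 and Slc25a34 over Slc25a35, while Slc25a14 over Slc25a30 stays between -2.99 and -2.03.

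Carriers reach the inner membrane through the receptor Tomm70a, small Timm chaperones and the TIM22 complex. Of 12 genes of that route, 12 rose by day 4 and 11 were higher at day 8 than at day 0 (against 28.6% and 33.5% of all tested genes), with median log2 fold changes of 1.80 and 1.46. Timm9 went from 10.6 to 62.6 and 57.3 CPM, Timm8a1 from 6.63 to 38.6 and 26.8, Timm10 from 14.1 to 61.8 and 86.7, and Timm22 itself from 39.0 to 151 and 108 (means of days 0, 4 and 8). Timm8a1 was the only one of the 12 to pass from day 4 to day 8, with a fall of 0.52 on the log2 scale (adjusted p = 0.0481). Timm29 (-0.36, adjusted p = 0.0537) and Timm22 (-0.49, 0.0553) lay just over the threshold, and Timm10 stood at 0.49 (0.0768).

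Among 27 mitochondrial transporters and channels outside the symbol rule, 16 rose and 6 fell by day 4 (59.3% and 22.2%, against 28.6% and 26.0% of all tested genes). At day 8, 17 were higher and 4 lower (63.0% and 14.8%, against 33.5% and 29.9%). The share that fell by day 4 was near that of all genes. The pyruvate carrier subunits rose most, Mpc1 from 20.2 to 361 and 631 CPM and Mpc2 from 44.1 to 723 and 731. Letm1, a cation exchanger, went from 38.3 to 286 and 243 CPM, and Mcur1, a regulator of the calcium uniporter, from 20.4 to 124 and 168. The 6 that fell by day 4 included the calcium uniporter pore Mcu, its dominant-negative relative Mcub and its gatekeeper Micu2, by 0.69, 1.66 and 0.64 on the log2 scale. They also included Sfxn3 (-1.57) and Mtch1 (-1.08), the latter a carrier-like protein of the outer membrane whose relative Mtch2 rose (1.82). Mcu and Micu2 rose again from day 4 to day 8, by 0.50 and 0.51 (adjusted p = 0.0396 and 0.0303). Neither passed at day 8 against day 0 (0.293 and 0.437), while Mcub was still lower (-1.05, 0.0139). From day 4 to day 8, 5 of the 27 rose and 1 fell (18.5% and 3.7%, against 11.7% and 10.8% of all tested genes). The 1 that fell was the serine transporter relative Sfxn2, by 1.99 (adjusted p = 0.000372), from 18.2 to 4.57 CPM.

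Enzymes that make or use the carriers' cargo were taken as a list of 63 genes, of which 60 were tested. By day 4, 43 rose and 4 fell (71.7% and 6.67%, against 28.6% and 26.0% of all tested genes). At day 8, 46 were higher and 4 lower than at day 0 (76.7% and 6.67%, against 33.5% and 29.9%). Bckdhb and Bcat2 of branched-chain amino acid breakdown went from 8.40 to 139 and 164 CPM and from 42.7 to 648 and 317. Carnitine acetyltransferase, Crat, went from 60.7 to 669 and 792 CPM. Chdh, choline dehydrogenase, had no counts at day 0 and was at 1.42 and 0.509 CPM on days 4 and 8. The 4 that fell by day 4 were Cpt1a (-1.06), Odc1 (-0.38), Mthfd1l (-0.85) and Aldh1l2 (-1.93). Those lower at day 8 included Cpt1a (-2.02), Oat (-0.76) and Aldh1l2 (-1.08). Among the genes that passed from day 4 to day 8, the 4 largest changes were falls of Glud1, glutamate dehydrogenase, from 757 to 191 CPM, Acly, which splits exported citrate, from 1262 to 364, and Got2, the mitochondrial aspartate aminotransferase, from 669 to 317, and a rise of Nmnat3 from 12.7 to 28.6. The adjusted p-values were 8.52e-05, 0.00618, 0.00224 and 0.00657. Over the same step the citrate carrier Slc25a1 stood at 0.18 on the log2 scale (SE 0.27, adjusted p = 0.663).

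The members not tested were Slc25a2, Slc25a18, Slc25a21, Slc25a31, Slc25a41, Slc25a48 and Slc25a54, with at most 26 counts in any library and 0 to 58 counts in all. Slc25a54 had none. A floor of 3 counts in a library corresponded to between 0.0808 and 0.125 CPM, so levels of these genes below that were not detectable at this depth.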

How the data were processed

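RNA-seq was made from 9 libraries, 3 per day, with groups and replicate numbers from the labels. Per the labels' protocols, cells were lysed with Triton X-100 and cycloheximide, RNA was taken from the supernatant after centrifugation, which can leave nuclear transcripts under-represented, and a stranded kit for total RNA was used for the libraries. The deposited table holds raw counts of reads per Ensembl gene, not normalized; alignment with HISAT2 to GRCm39 and counting with featureCounts are per the submitters' processing notes. Tool versions, the annotation release and whether counting used strand are not given in the sources used here. Counts of genes with exons on the opposite strand are therefore uncertain.

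Counts were fitted in R 4.3.3 with edgeR 4.0.16 (quasi-likelihood F-test, TMM scaling, filterByExpr with minimum count 10 and minimum total 15, all 9 libraries, no covariates, two-sided, Benjamini-Hochberg over 14649 genes, threshold 0.05). All adjusted p-values of genes come from this fit unless an alternative fit or DESeq2 (1.42.0) is named. Those of each alternative were adjusted over the genes tested in it. Fold changes are fitted values, not ratios of mean CPM. Pair ratios are log2 ratios of counts with 0.5 added, and their exact permutation test enumerated 1680 assignments; being a sum of squares, it has no direction. Fits and permutations were tested on simulated data. Exonic lengths and overlaps came from GENCODE M21 (GRCm38, another build, so no coordinates were taken), and promoters from RefSeq GRCm38.p6. Libraries of the same day all differed by more than sampling noise (chi-square per degree of freedom 16.1 to 234), so each was kept as a replicate.

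Values in every library are given for members among the 6 highest per length on any day, the 4 largest rises and falls in each comparison and the fixed pairs. Of other lists, up to 4 members with the largest changes are named per comparison, and more where a count was small enough to name all; these extra names were picked with their values in view. Some genes that this rule names, 1 member among them, are not reported here by name, though counts include them. The members, lists and pairs were chosen with earlier results of these data known. Alternatives were RLE and total-count scaling, no filter on low counts, DESeq2, a fit of the 6 libraries compared, a replicate block and leaving out each library.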

Additional observations from a re-analysis of the deposited data

How the results depend on the processing

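Over 114 results of single members and 15 alternatives, 1627 of 1710 values kept direction and side of the threshold, 46 lost the call, 37 gained it and 0 of those called reversed. Calls held in every alternative for 23 of 26 members at day 4 against day 0, 7 of 10 at day 8 against day 4 and 23 of 29 at day 8 against day 0. With total-count scaling, 9 members were lower at day 4 instead of 4; the scaling moved all genes, as given in the report. Genes called from day 4 to day 8 numbered 3285, and 1901 in a fit of only the 6 libraries compared, which has fewer residual degrees of freedom; leaving out single libraries gave 1894 to 4185, with 1894 without day 4 replicate 3, 2107 without day 8 replicate 1 and 2012 without day 8 replicate 2. In the same step, members that rose numbered 2 to 5 and members that fell 6 to 10 when single libraries were left out. Of all genes tested in those fits, 6.01% to 13.5% rose and 6.18% to 14.1% fell. Those that fell include Slc25a21 in fits where it passed the filter only through its day 4 counts. The cause of these shifts was not tested.

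The replicate numbers were not taken to pair the libraries, since correlations of same-numbered libraries ranged from -0.126 to 0.273 and were not all over 0.1; between days 0 and 8 they were 0.273, 0.138 and 0.0859. In 11 of 18 comparisons a library correlated best with its own number, a hint from the data and not from the design. With the replicate block, the pair ratios kept their size, but none of the 8 passed after adjustment; the smallest p of that permutation is 0.0278. The change in log2 ratio from day 0 to day 8 was 1.68 for Slc25a12 over Slc25a13, 2.33 for Slc25a28 over Slc25a37, 2.62 for Slc25a33 over Slc25a36, 2.26 for Slc25a39 over Slc25a40, -4.60 for Slc25a24 over Slc25a25, -6.30 for Slc25a24 over Slc25a23, 2.15 for Slc25a42 over Slc25a16 and 7.52 for Slc25a34 over Slc25a35, with adjusted exact permutation p-values of 0.0833 or 0.125. Leaving out single libraries gave 1.29 to 2.11 for Slc25a12 over Slc25a13. In the edgeR fit with the block, members called numbered 23 higher and 6 lower at day 4, 5 and 7 from day 4 to day 8, and 23 and 6 at day 8 against day 0. Of all genes tested in that fit, the shares in the same order were 28.5% and 26.6%, 11.4% and 9.8%, and 33.7% and 30.2%. Depth limits the 7 members not tested.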
